A study of Mus musculus with 61 samples.

Results

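The lacrimal gland, which makes the watery part of the tear film, was set against the salivary gland in untreated male mice of the NOD strain. The study states that diabetes and disease of the salivary glands are rare in males of this strain. Their lacrimal glands are infiltrated by leukocytes in essentially all animals, starting before week 8. The 8 arrays were taken from 61 in the series by their titles, as all the untreated week 8 samples: 4 lacrimal arrays and 4 salivary arrays. Each lacrimal sample combined both extra-orbital glands of a mouse, per the study's methods, and the salivary samples are described there as combined submandibular, salivary and parotid tissue taken after the cervical lymph nodes had been dissected away. All these mice were labelled week 8 with no treatment, so neither the antagonist nor the control antibody used elsewhere in the series had been given. The sources do not state that each salivary sample came from its own mouse, so the p-values measure the spread between these samples. Total RNA was amplified, labelled with biotin and hybridised to Affymetrix arrays of the mouse genome, on which each of 45101 probe sets has a log2 value after GCRMA, a normalization that corrects for background by probe sequence. Later untreated arrays of both glands (7 at week 12, 8 at week 14 and 8 at week 16) were used only to see whether the week 8 differences were found again in other mice.

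Both organs are branched exocrine glands built from acini, ducts and contractile myoepithelial cells in a connective tissue stroma. The lacrimal gland buds from the conjunctival epithelium near the eye, where Pax6 acts, while the salivary glands bud from the oral epithelium, where Pitx1 is expressed. Acinar cells release a chloride-rich primary fluid and granules of protein, and in salivary glands the ducts then take back sodium and chloride. In male mice the submandibular duct also holds granular convoluted tubules, which store kallikreins and growth factors.

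A log2 value of 4 served as the detection floor, exceeded by 38.1% to 38.3% of probe sets on lacrimal and 39.5% to 40.3% on salivary arrays, and the 19401 probe sets above it on at least 2 of the 8 arrays were tested with limma. Correlations between arrays were 0.98 to 0.99 within lacrimal glands, 0.97 to 0.98 within salivary glands and 0.84 to 0.87 between glands. Salivary replicate 1 stood apart, with 44 probe sets over 2 log2 units above the median of the other salivary arrays, and 26 of these were among the probe sets higher in lacrimal gland. On the 56 probe sets that were at least 5 log2 units higher in lacrimal gland than in salivary replicates 2 to 4, that array exceeded the other salivary arrays by a median of 1.7 and by 2 or more on 27, so differences of lacrimal products that it moved by over 1.5 times are given with and without it. The difference between the 3' and 5' control probe sets of Actb, a measure of RNA integrity, was 2.06 to 2.34 in lacrimal and 1.73 to 2.41 in salivary arrays. The same difference for Gapdh had the opposite sign, at -0.80 to -0.55 in lacrimal and -0.78 to -0.08 in salivary arrays. Of 9 T cell marker genes, none exceeded 4 in any array, and of 12 skeletal muscle genes none passed the filter.

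A probe set was called where the fold reached 2 and limma's p, adjusted by Benjamini-Hochberg, was below 0.05, and 4023 were, 20.7% of those tested. Without salivary replicate 1, 3885 of these were called again in the same direction, 138 were lost and 257 others were called. Of these, 1545 were higher in lacrimal gland (7.96% of those tested) and 2478 were lower (12.8%). Counted as genes, each by its brightest probe set that carries a single gene symbol, 2233 of 9884 differed (22.6%), with 804 higher in lacrimal gland (8.13%) and 1429 lower (14.5%). At a fold of 8 or more, 92 genes were higher (0.931%) and 174 lower (1.76%). The median difference over all genes was -0.05 on the log2 scale, lacrimal minus salivary. The gene lists below were chosen with earlier results of these data known, and a gene could pass the filter through 1 gland alone. Counts per list are set beside the shares of all genes as description, not as a test. All differences below are lacrimal minus salivary in log2 units, and folds are limma's unless a bound is named. Values are relative amounts in tissue RNA, in which fewer cells of a type and less RNA per cell cannot be told apart.

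Secreted proteins separated the glands most widely. Of 22 salivary products that could be tested, 19 were lower in lacrimal gland, 1 was higher and 2 did not pass, beside 14.5% lower and 8.13% higher over all genes. Their median difference was -9.66, against -0.05 over all genes. Members below the floor in all lacrimal arrays passed the filter through their salivary values alone, so for them the direction was fixed by the filter. The list was chosen with earlier results of these data known, and its counts and median are description only. Kallikreins, serine proteases of the granular duct that process growth factors and other peptides, took 9 of the 15 lowest places among all genes as Klk1 and its Klk1b relatives, and the start regions of the Klk1b genes are shown because they are so alike. RefSeq (GRCm38.p6) places the starts of Klk1 and 13 Klk1b genes on the plus strand of chromosome 7 within 275 kb. The stretches shown are from the Klk1b genes tested here, cut 40 bases to each side of the motif TTTAAA, which is set in capitals and begins between positions -44 and 4 relative to the annotated start.
Klk1b8, chr7:43950582-43950667, plus strand: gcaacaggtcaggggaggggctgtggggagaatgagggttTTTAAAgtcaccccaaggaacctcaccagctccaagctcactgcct
Klk1b1, chr7:43966678-43966763, plus strand: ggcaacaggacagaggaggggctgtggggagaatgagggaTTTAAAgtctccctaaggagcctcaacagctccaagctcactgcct
Klk1b11, chr7:43995797-43995882, plus strand: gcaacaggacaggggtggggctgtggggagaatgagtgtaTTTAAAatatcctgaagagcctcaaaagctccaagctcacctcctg
Klk1b27, chr7:44052233-44052318, plus strand: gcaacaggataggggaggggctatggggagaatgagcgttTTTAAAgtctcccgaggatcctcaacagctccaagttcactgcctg
Klk1b21, chr7:44102256-44102341, plus strand: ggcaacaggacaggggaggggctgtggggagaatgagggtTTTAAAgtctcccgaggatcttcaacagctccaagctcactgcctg
Klk1b16, chr7:44137211-44137296, plus strand: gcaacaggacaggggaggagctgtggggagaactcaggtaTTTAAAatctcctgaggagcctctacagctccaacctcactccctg
Klk1b24, chr7:44188165-44188250, plus strand: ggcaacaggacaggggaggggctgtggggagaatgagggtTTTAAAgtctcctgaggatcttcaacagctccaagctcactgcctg
Klk1b5, chr7:44216392-44216477, plus strand: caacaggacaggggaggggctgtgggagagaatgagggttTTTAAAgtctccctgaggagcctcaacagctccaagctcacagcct
The motif, which reads the same on both strands, was in 13 of the 14 windows of 300 bases (250 before to 50 after the annotated start) of Klk1 and the Klk1b genes and in 13.2% of all 32851 windows, and the letters TATAAA, searched on both strands, were in none of the 14. Klk1 was the gene without TTTAAA in this window. Since the family is so alike in sequence, a probe set may also detect transcripts of its relatives, and the values of single Klk1b genes are uncertain to that extent.

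Klk1, the tissue kallikrein, had log2 values of 3.10, 4.0, 2.93 and 3.13 in lacrimal gland, against 15.88, 15.88, 15.95 and 16.03 in salivary gland. The difference of -12.64 ± 0.19 (SE, adjusted p = 8.857e-12) is a fitted value whose size is not well measured, since 3 of the lacrimal values were below the floor and the salivary values were near the top of the scale, where the highest value on any array was 16.20. Klk1b5 was at 2.72, 2.91, 2.54 and 2.48 in lacrimal gland, against 13.99, 13.58, 13.96 and 13.50 in salivary gland. With every lacrimal array below the floor, Klk1b5 was at least 866-fold lower, measured against that floor. The same bound was 1360-fold for Klk1b16, 1023-fold for Klk1b8, 540-fold for Klk1b27, 398-fold for Klk1b1 and 358-fold for Klk1b24. Klk1b11 and Klk1b21 were above the floor in each lacrimal array, at 5.41 ± 0.77 and 4.86 ± 0.48 (SD, n = 4 each), and differed by -9.21 and -8.66. In each of these 9 genes the 4 lacrimal arrays lay far below the 4 salivary arrays. Egfbp2, a kallikrein that binds epidermal growth factor, differed by -10.18. Egf itself, the growth factor stored in the same tubules, was well above the floor in both glands, at 8.64 ± 0.13 in lacrimal and 13.95 ± 0.23 in salivary gland (SD, n = 4 each), a difference of -5.31 (adjusted p = 1.214e-10).

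Several further salivary products, among them those of demilune cells, were also lower in lacrimal gland. Dcpp1, a demilune cell and parotid protein, had values of 2.91, 2.94, 3.34 and 3.22 in lacrimal gland, against 15.06, 15.18, 15.18 and 15.04 in salivary gland. It was at least 2218-fold lower, the largest such bound among the genes named here. Smgc, a mucin-related protein of the sublingual and early submandibular gland, was at least 728-fold lower, and Dcpp3 at least 96.4-fold lower. The Dcpp genes are near copies of each other, and their probe sets may detect more than 1 of them. Crisp3, a cysteine-rich secretory protein, was at 4.97 in lacrimal replicate 1 and at 3.16, 3.50 and 3.38 in the other lacrimal arrays, against 14.68 to 14.75 in salivary gland. Prol1, a proline-rich secreted protein, was also highest in lacrimal replicate 1, at 6.84 against 4.53 to 5.91 in the other lacrimal arrays, and was 15.68 to 15.81 in salivary gland. These traces did not bring the glands near each other, since Crisp3 differed by -10.96 and Prol1 by -10.14. Mucl1, a small mucin-like protein, differed by -4.15, whereas its relative Mucl2 was at 15.87 ± 0.02 in lacrimal and 15.91 ± 0.06 in salivary gland (SD, n = 4 each), a difference of -0.04 ± 0.05 (SE, adjusted p = 0.54). Both groups lay near the top of the scale in Mucl2.

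The parotid products measured had unlike levels. Car6, a carbonic anhydrase secreted into saliva and tears, was at 14.31, 14.16, 14.59 and 14.66 in lacrimal gland, against 15.39, 15.46, 15.46 and 15.39 in salivary gland, a difference of -0.9969 that was just inside the fold of 2 and did not pass. Amy1, the salivary amylase that is a main product of the parotid acinus, was at 3.34, 3.51, 3.24 and 3.74 in lacrimal gland, against 5.56, 4.58, 5.48 and 5.45 in salivary gland. Bpifa2, another parotid secretory protein, exceeded 4 in salivary replicate 3 alone, at 5.43, and was not tested. Parotid tissue is named in the methods, whereas the titles of these salivary arrays read only Sub, and the share of parotid tissue in these samples was not tested. Lpo, the lactoperoxidase of saliva and tears, was the salivary product higher in lacrimal gland, at 15.47 ± 0.08 against 13.60 ± 0.17 (SD, n = 4 each). Its difference was 1.87 (adjusted p = 2.381e-08).

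**Figure D1:**
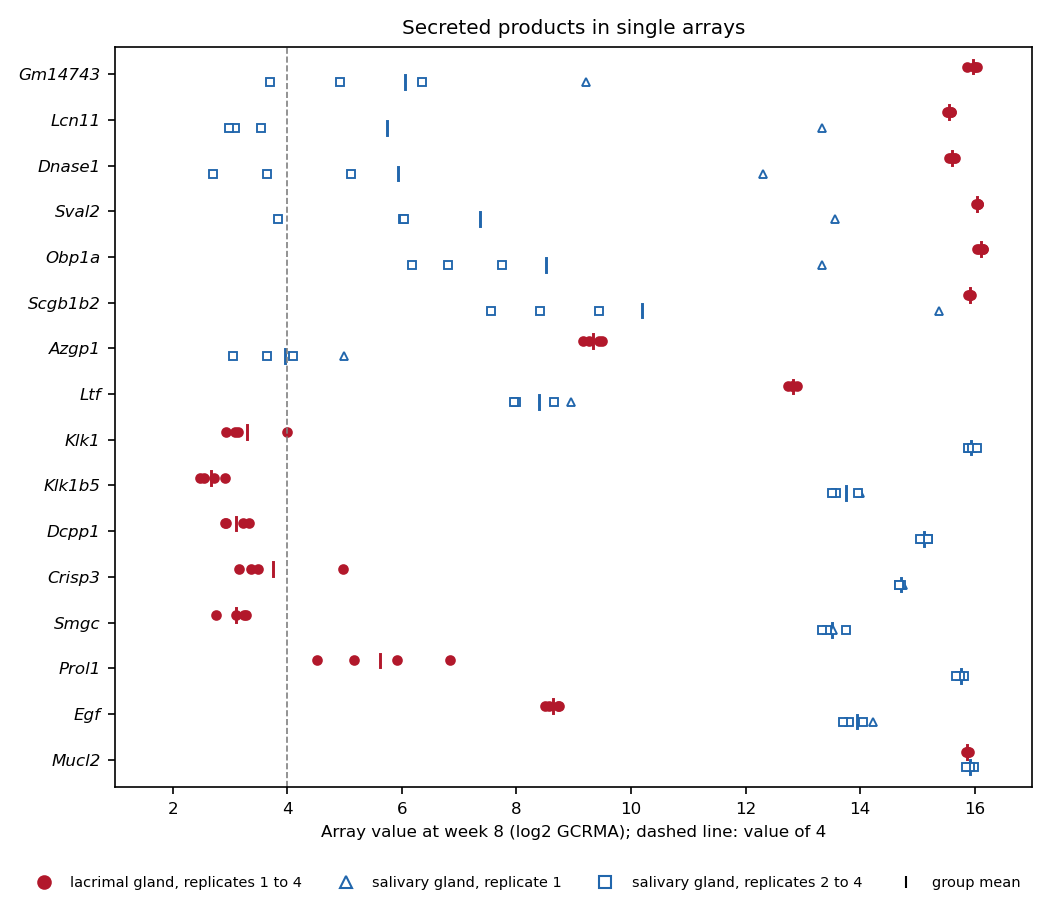
Log2 GCRMA values of secreted products at week 8, with 1 point per array, lacrimal arrays above salivary arrays in each row, short bars for the group means and a dashed line at 4. The first 8 genes were higher in lacrimal gland, with salivary replicate 1 (triangles) the highest salivary array in each, Klk1 to Egf were lower in lacrimal gland, and Mucl2 overlapped at the top of the scale.

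On the lacrimal side, 16 genes on the list of tear products were tested, of which 6 were higher in lacrimal gland, 7 lower and 3 did not pass, with a median of -0.40. Not every secreted product described next is on that list, since some of the 15 highest genes are described with them. Over all genes 8.13% were higher and 14.5% lower. Dnase1, an endonuclease secreted into tears, had values of 15.54, 15.65, 15.58 and 15.64 in lacrimal gland and 12.30, 2.71, 5.12 and 3.65 in salivary gland, where replicate 1 was the high one. All lacrimal arrays exceeded all salivary arrays, and the difference was 9.66 ± 1.64 (SE, adjusted p = 4.840e-04) with all arrays and 11.78 (adjusted p = 2.856e-08) without salivary replicate 1. Lcn11, a lipocalin of the family that carries small lipophilic molecules, showed the same split, at 15.52 to 15.58 in lacrimal gland, against 13.34 in salivary replicate 1 and 2.99 to 3.54 in the rest. Its difference was 9.81 with that array and 12.35 without it. Sval2, a secreted seminal vesicle antigen-like protein, was at 16.05 ± 0.01 in lacrimal gland, and at 13.55 in salivary replicate 1 and 3.84 to 6.03 in the other salivary arrays, with differences of 8.68 and, without that array, 10.75. The salivary level of these genes thus depended on 1 array. Obp1a, an odorant-binding lipocalin, was at 16.10 ± 0.06 in lacrimal gland, and at 13.34 in salivary replicate 1 and 6.17 to 7.76 in the others, with differences of 7.58 and, without that array, 9.19.

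The salivary gland was not free of tear products apart from that array. Ltf, the iron-binding lactoferrin, was at 12.82 ± 0.07 in lacrimal and 8.39 ± 0.50 in salivary gland (SD, n = 4 each), a difference of 4.43. Dmbt1, a scavenger receptor protein of mucosal secretions, differed by 4.84 and Azgp1, a zinc-binding lipid-mobilising glycoprotein, by 5.39. In salivary replicates 2 to 4 Dmbt1 was at 6.12 to 7.39, whereas Azgp1 was at 3.06 to 4.10, around the floor. Scgb1b2, a secretoglobin of the androgen-binding protein family, was at 15.88 to 15.93 in lacrimal gland, against 15.38 in salivary replicate 1 and 7.55 to 9.45 in the others, with differences of 5.71 and, without that array, 7.44. Its relatives Scgb2b27 and Scgb1b27, whose probes may also detect further family members, were lower in lacrimal gland, with differences of -6.53 and -3.04, so the 3 secretoglobins tested were divided between the glands. Tear products lower in lacrimal gland included Mup5, a lipocalin of the major urinary protein family, with a difference of -2.42, Lyz1, a lysozyme, with -1.70, and Lcn2, an iron-siderophore-binding lipocalin, with -1.39. Pip, the prolactin-induced protein, was high in both glands, at 15.38 ± 0.05 and 15.18 ± 0.07 (SD, n = 4 each) in the lacrimal and salivary glands, and did not pass. Pigr, which carries immunoglobulin A across the epithelium, differed by 0.53 in its brightest probe set and did not pass. Its other probe set differed by 1.08 and was called higher in lacrimal gland, with overlapping groups.

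Of the 15 genes highest in lacrimal gland, several were not on the list of tear products. Gm14743 was at 16.00, 15.87, 15.99 and 16.04 in lacrimal gland, against 9.22, 6.35, 4.93 and 3.70 in salivary gland. The groups did not overlap, as in 56.5% of all genes, and the difference was 9.93 (adjusted p = 4.692e-06) with all arrays and 10.98 without salivary replicate 1. Gm14743 and Obp1a both start on the minus strand of chromosome X. RefSeq gives their start regions as follows, with the letters TATAAA in capitals, shown because both are among the 15 highest genes and their flanking letters are alike.
Gm14743, chrX:78245946-78246031, minus strand: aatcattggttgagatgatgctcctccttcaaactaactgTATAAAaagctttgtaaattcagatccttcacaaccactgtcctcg
Obp1a, chrX:78091359-78091444, minus strand: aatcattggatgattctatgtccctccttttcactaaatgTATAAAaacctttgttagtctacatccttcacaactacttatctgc
TATAAA, searched on both strands, was in 13.6% of all windows of this length, and TTTAAA was in neither of these.

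Enzymes of sulfation stood among the 15 highest genes by the same ranking. Chst1, a sulfotransferase that acts on galactose in keratan sulfate, was at 12.15, 12.31, 12.45 and 12.16 in lacrimal gland, against 6.94, 2.97, 3.11 and 3.24 in salivary gland. Papss2, which makes the sulfate donor, was at 10.85 ± 0.11 in lacrimal and 3.41 ± 1.17 in salivary gland (SD, n = 4 each), a difference of 7.43. Gal3st2 and Gal3st2c, galactose-3-O-sulfotransferases whose transcripts may share probes, differed by 7.66 and 7.53. For each of these 4 genes salivary replicate 1 was the highest salivary array, and the differences without it were 9.16 for Chst1, 7.99 for Papss2, 8.38 for Gal3st2 and 8.10 for Gal3st2c. Fgg, the gamma chain of fibrinogen, differed by 8.94, or 10.24 without that array, which was at 7.75 against 2.36 to 2.71 in the other salivary arrays. Cyp2j13, a cytochrome P450, differed by 8.28, or 9.21 without it, and Slc27a2, a fatty acid transport protein and acyl-CoA synthetase, by 8.01, or 9.38 without it. Akr1c18, a steroid-reducing enzyme that inactivates progesterone, differed by 7.86, or 8.23 without it.

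Of 23 genes of granule release, 3 were higher in lacrimal gland, 4 lower and 16 did not pass, with a median of -0.27, where 22.6% of all genes were called. Rab3d, a GTPase on the granules of exocrine cells, was at 10.25 ± 0.05 in lacrimal and 9.13 ± 0.08 in salivary gland (SD, n = 4 each), a difference of 1.13 (adjusted p = 3.950e-07). Rab27a, which tethers granules to the plasma membrane, differed by 1.38, and Rab26, another granule GTPase, by 1.06, or by 0.90 without salivary replicate 1, which is under the fold of 2. Syt7, a calcium sensor for granule fusion, was at 3.22, 3.36, 2.72 and 3.18 in lacrimal gland, against 5.33, 5.25, 4.57 and 5.73 in salivary gland. It was at least 2.33-fold lower, and Rph3al, a Rab effector, differed by -1.87 and Cadps2, a granule priming factor, by -1.68. Vamp8, the main granule SNARE of exocrine cells, differed by 0.38 and Rab27b by -0.27, and neither passed.

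Protein folding genes of the endoplasmic reticulum were higher in lacrimal gland where they differed. Of 22 tested, 11 were higher in lacrimal gland and none was lower, with a median of 0.97, beside 8.13% of all genes higher. Calr, the calcium-binding chaperone calreticulin, was at 14.08, 14.06, 14.11 and 14.13 in lacrimal gland, against 12.58, 12.50, 12.55 and 12.55 in salivary gland. The groups were tight and apart, and the difference was 1.55 ± 0.05 (SE, adjusted p = 3.056e-09). Sdf2l1, a cofactor of the chaperone cycle, differed by 2.20, Edem1, which delivers misfolded glycoproteins for degradation, by 2.19, and Hspa5, the central chaperone BiP, by 1.14. Agr2, a disulfide isomerase needed for mucin production, was the extreme member, at 12.96, 13.00, 12.84 and 12.73 in lacrimal gland, against 8.09, 3.45, 5.77 and 4.68 in salivary gland, a difference of 7.39, or 8.25 without salivary replicate 1. Hsp90b1, the chaperone Grp94, differed by -0.19 and did not pass.

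Genes of mucin-type glycosylation were lower where they differed. Of 15 such genes tested, none was higher in lacrimal gland and 8 were lower, beside 14.5% of all genes, with a median of -1.11. C1galt1, which builds the core 1 O-glycan, was at 3.28, 3.68, 4.18 and 4.62 in lacrimal gland, against 8.44, 8.78, 8.52 and 9.23 in salivary gland, a difference of -4.81. B3gnt6, the core 3 synthase, was at 2.36 ± 0.14 in lacrimal and 7.55 ± 0.10 in salivary gland (SD, n = 4 each), at least 11.7-fold lower. St3gal4, which caps galactose with sialic acid, was at least 28.8-fold lower.

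Water and ion transport genes were mostly lower in lacrimal gland. Of 38 genes tested, 22 were lower in lacrimal gland, 4 were higher and 12 did not pass, with a median of -1.85. The shares over all genes were 14.5% lower and 8.13% higher. Among the aquaporins, Aqp8, a water channel, was at 10.62, 10.84, 10.78 and 10.46 in lacrimal gland, against 5.51, 2.86, 3.01 and 2.50 in salivary gland. The groups were far apart, and the difference was 7.21 (adjusted p = 9.946e-07), or 7.88 without salivary replicate 1, the highest of the salivary arrays. Aqp9, a channel that also passes glycerol, was at least 1.89-fold higher. Aqp5, the apical water channel of acinar cells in both glands, was at 10.63 ± 0.09 in lacrimal and 11.17 ± 0.27 in salivary gland (SD, n = 4 each) and did not reach a fold of 2. Aqp1, a water channel of vessels and other cells, differed by 0.99, just inside that fold.

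Of 15 chloride and bicarbonate genes, 8 were lower in lacrimal gland and 1 was higher, beside 14.5% and 8.13% of all genes. Slc12a2, the basolateral cotransporter that loads acinar cells with chloride, was at 10.32, 10.20, 10.61 and 10.26 in lacrimal gland, against 13.20, 13.61, 13.56 and 13.25 in salivary gland. Its difference was -3.06 (adjusted p = 8.901e-09), and Ano1, the calcium-activated chloride channel of the apical membrane, differed by -1.84. Cftr, the cyclic AMP-regulated chloride channel found in ducts, was at 3.01, 2.85, 3.16 and 2.86 in lacrimal gland, against 7.63, 7.13, 7.81 and 8.10 in salivary gland. It was at least 12.7-fold lower, and Slc26a6, an apical chloride and bicarbonate exchanger, was at least 6.78-fold lower. Car2, the cytosolic carbonic anhydrase, differed by -4.60. Slc4a4, a sodium bicarbonate cotransporter, was the exception, at 6.27, 6.41, 6.46 and 6.35 in lacrimal gland, against 4.21, 3.65, 4.16 and 3.86 in salivary gland. Its difference was 2.40 (adjusted p = 3.484e-07).

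Of 11 genes of sodium and proton transport, 8 were lower and 1 was higher, beside 14.5% and 8.13% of all genes. Atp1b1, the beta subunit of the sodium pump, was at 9.08, 9.38, 9.58 and 9.37 in lacrimal gland, against 14.17, 14.24, 14.31 and 14.36 in salivary gland, a difference of -4.92 (adjusted p = 7.065e-11). Fxyd2, which modulates that pump, differed by -7.20. The 3 subunits of the epithelial sodium channel of ducts were below the floor in every lacrimal array, with Scnn1a at least 6.08-fold, Scnn1b at least 6.63-fold and Scnn1g at least 2.93-fold lower. Slc9a3, an apical sodium and proton exchanger, was at least 4.83-fold lower. Of 8 potassium channel genes, 6 were lower in lacrimal gland and none was higher. Kcnn4, the calcium-activated potassium channel of intermediate conductance in acinar cells, was at 7.24 ± 0.13 in lacrimal and 11.44 ± 0.25 in salivary gland (SD, n = 4 each). Kcnma1, the other calcium-activated potassium channel of these cells, was at 8.30 ± 0.15 and 7.97 ± 0.28 in the lacrimal and salivary glands and did not pass. Kcnj16, an inward rectifier, was at least 11.4-fold lower.

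**Figure D2:**
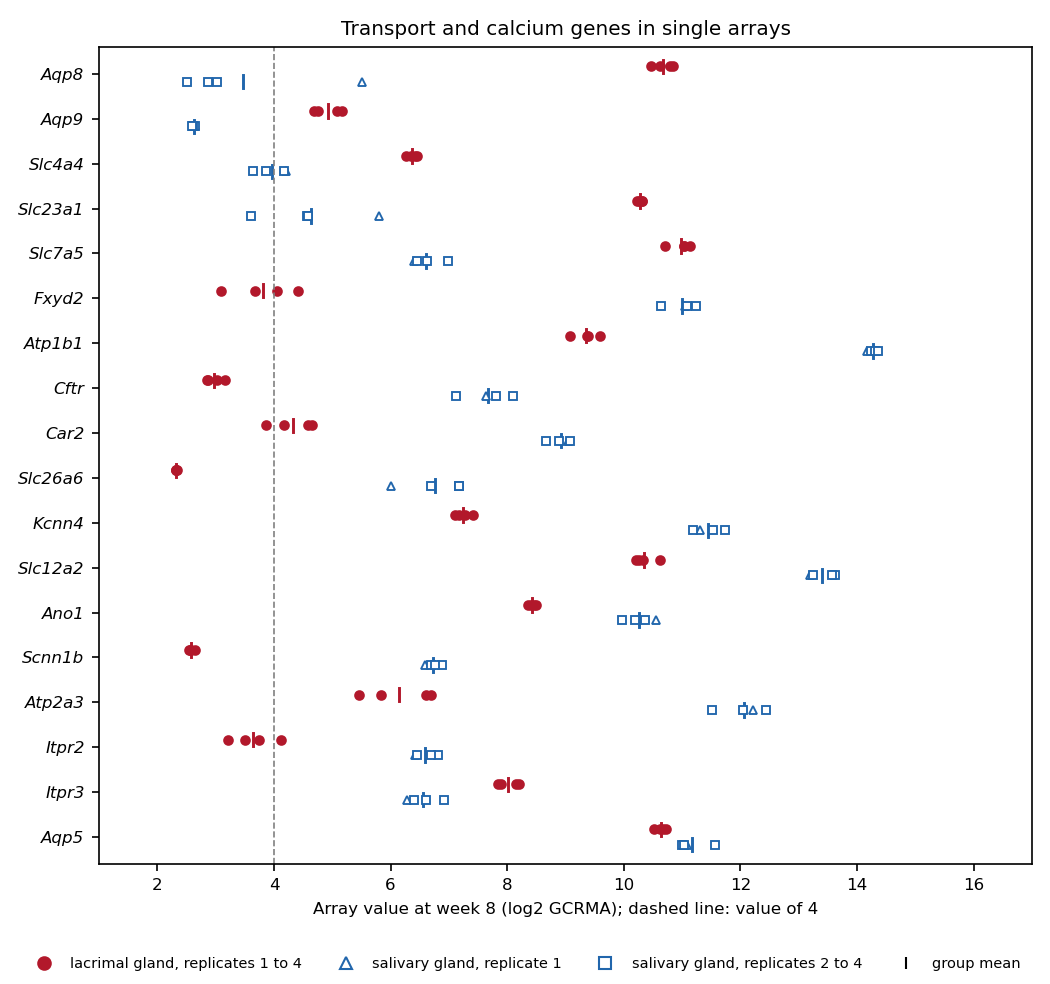
Log2 GCRMA values of transport and calcium genes at week 8, with 1 point per array, lacrimal arrays above salivary arrays in each row, short bars for the group means and a dashed line at 4. Aqp8 to Slc7a5 and Itpr3 were higher in lacrimal gland, Fxyd2 to Itpr2 were lower, and Aqp5 differed by less than a fold of 2.

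Of 38 nutrient carriers tested, 8 were higher in lacrimal gland, 9 lower and 21 did not pass, with a median of -0.02, where 8.13% of all genes were higher and 14.5% lower. Slc7a5, the light chain of the large neutral amino acid carrier, was at 11.03, 11.14, 11.03 and 10.70 in lacrimal gland, against 6.40, 6.98, 6.62 and 6.46 in salivary gland, a difference of 4.36 (adjusted p = 2.232e-09). Its partner Slc3a2 differed by 1.33. Slc23a1, a sodium-dependent vitamin C carrier, was at 10.28 ± 0.04 in lacrimal and 4.63 ± 0.90 in salivary gland (SD, n = 4 each). Slc16a1, a lactate and pyruvate carrier, differed by 3.74 and Slc25a10, the mitochondrial dicarboxylate carrier, by 3.21. Slc2a4, the insulin-responsive glucose carrier, was at least 4.57-fold lower.

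Among 25 receptor and calcium signalling genes, 11 were lower in lacrimal gland, 1 was higher and 13 did not pass, with a median of -0.38. For all genes the shares were 14.5% lower and 8.13% higher. Atp2a3, a calcium pump of the endoplasmic reticulum, was at 5.84, 6.60, 6.69 and 5.46 in lacrimal gland, against 12.21, 12.44, 11.52 and 12.04 in salivary gland, a difference of -5.91. Atp2a2, the more general form of that pump, was at 11.85 ± 0.07 and 11.51 ± 0.14 (SD, n = 4 each) in the lacrimal and salivary glands and did not pass. The inositol trisphosphate receptors, which release stored calcium after a nerve signal, were divided. Itpr2 was at 3.22, 3.50, 3.74 and 4.12 in lacrimal gland, against 6.42, 6.82, 6.69 and 6.45 in salivary gland, a difference of -2.95. Itpr3 was at 8.15, 7.89, 8.20 and 7.83 in lacrimal gland, against 6.28, 6.92, 6.40 and 6.61 in salivary gland, a difference of 1.47 (adjusted p = 1.303e-05). Gnaq, a G protein subunit downstream of muscarinic receptors, differed by -1.44, Fgfr2, a receptor needed for budding of both glands, by -2.40, and Egfr, the receptor of Egf, by -1.33. The muscarinic receptor genes Chrm1 and Chrm3 lay below the filter and were not tested.

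Of 57 transcription factors tested, 7 were higher in lacrimal gland, 19 lower and 31 did not pass, where 8.13% of all genes were higher and 14.5% lower, and their median was -0.07. Pax6, the paired-box factor of the eye field, was at 9.99, 10.05, 10.16 and 10.35 in lacrimal gland, against 3.69, 2.96, 2.89 and 2.94 in salivary gland. All salivary arrays were below the floor, so it was at least 70.3-fold higher (difference 7.02 ± 0.18 SE, adjusted p = 4.704e-10). Otx1, a homeobox factor of the anterior head, was at 7.62 ± 0.15 in lacrimal and 2.37 ± 0.27 in salivary gland (SD, n = 4 each), at least 12.3-fold higher. Foxc2, a forkhead factor, was at 7.33, 7.43, 7.53 and 7.67 in lacrimal gland, against 2.77, 2.98, 2.90 and 3.06 in salivary gland, at least 11.3-fold higher. Its relative Foxc1, known from the lacrimal gland bud, was at 9.23 ± 0.09 and 9.15 ± 0.28 (SD, n = 4 each) in the lacrimal and salivary glands and did not pass. Pax6 and Otx1 in salivary replicate 1, at 3.69 and 2.77, were above the other salivary arrays but below the floor.

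Other lacrimal-side factors differed by a small fold. Bhlha15, the factor Mist1 of secretory acinar cells, was at 13.04 ± 0.07 in lacrimal and 11.72 ± 0.14 in salivary gland (SD, n = 4 each), a difference of 1.32. Tfap2b, an AP-2 factor, differed by 1.22. Osr2, a zinc finger factor, was at 4.31, 3.95, 4.03 and 3.82 in lacrimal gland, against 2.48 to 2.54 in salivary gland, a difference of 1.51 that rests on values at the floor. Xbp1, which drives the secretory stress response, differed by 0.48, and Sox9, a factor of both gland buds, by 0.72, and neither passed.

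On the salivary side, Pitx1, a homeobox factor of the oral ectoderm, was at 2.53, 2.60, 2.61 and 2.65 in lacrimal gland, against 7.53, 8.32, 8.05 and 7.62 in salivary gland, and was at least 14.7-fold lower. Foxi1 and Ascl3, which mark ion-transporting duct cells, were at least 8.36-fold and at least 8.09-fold lower. Tfcp2l1, a factor of ducts and ductal ion transport, was at 7.34, 7.63, 8.18 and 7.54 in lacrimal gland, against 11.77, 11.70, 12.11 and 11.96 in salivary gland, a difference of -4.21 (adjusted p = 9.519e-09). Sox10, a factor of acinar and myoepithelial cells of both glands and of Schwann cells, was at 5.79 ± 0.09 in lacrimal and 9.42 ± 0.22 in salivary gland (SD, n = 4 each). Sox2, which maintains salivary progenitors, was at least 5.04-fold lower, and Meis2, a homeobox factor, differed by -3.21. Spdef, a factor of mucous secretory cells, differed by -2.80, Creb3l1, which raises secretory capacity, by -2.99, and Elf5, an epithelial ETS factor, by -1.43. Nfib, a general epithelial factor, differed by -0.08 in its brightest probe set and did not pass. Its other probe sets differed by -0.44 to -1.01, and the one at -1.01 was called lower.

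**Figure D3:**
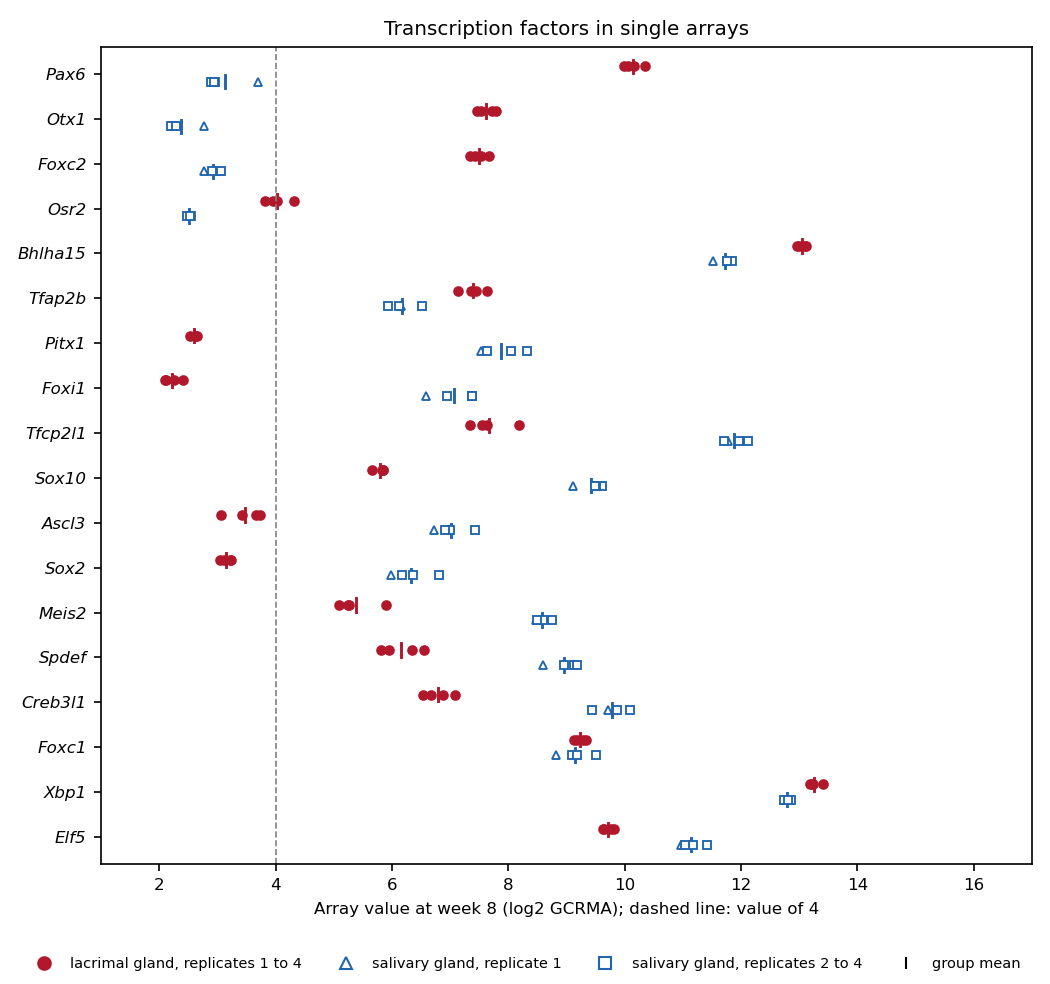
Log2 GCRMA values of transcription factors at week 8, with 1 point per array, lacrimal arrays above salivary arrays in each row, short bars for the group means and a dashed line at 4. Pax6, Otx1 and Foxc2 were above 7 in all lacrimal arrays and below 4 in all salivary arrays, and Pitx1, Foxi1, Ascl3 and Sox2 were below 4 in all lacrimal arrays.

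Stromal genes were lower in lacrimal gland where they differed. The extracellular matrix list had 49 tested genes, with 34 lower in lacrimal gland, 15 not passing and none higher, and with a median of -1.47, beside a background of 14.5% of genes lower. Col4a1, a basement membrane collagen, was at 8.72, 8.43, 8.27 and 8.53 in lacrimal gland, against 10.77, 11.37, 10.89 and 11.14 in salivary gland, a difference of -2.56 (adjusted p = 1.025e-07). Its partner Col4a2 differed by -1.97. The fibrillar collagens Col1a1 and Col3a1 were bright in both glands, with Col1a1 at 8.52 ± 0.54 in lacrimal and 9.86 ± 0.25 in salivary gland (SD, n = 4 each), and with Col3a1 at a difference of -0.98, which did not pass. Among proteoglycans, Fmod, a collagen-binding one, differed by -3.47, Bgn by -2.80 and Dcn by -1.25. Fn1, the matrix protein fibronectin, was at 7.20 ± 0.36 and 7.21 ± 0.23 (SD, n = 4 each) in the lacrimal and salivary glands.

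Stromal and vessel cell genes had no higher call either. Of 32 tested, 14 were lower in lacrimal gland and none was higher, with a median of -0.93, beside 14.5% of all genes lower. Pdgfra, the receptor that marks fibroblasts, was at 5.95, 5.79, 5.33 and 5.94 in lacrimal gland, against 8.08, 8.42, 8.78 and 8.13 in salivary gland, a difference of -2.60. Cxcl14, a chemokine of fibroblasts and epithelium, differed by -3.2. The pericyte genes Rgs5 and Pdgfrb differed by -2.08 and -1.53, while the endothelial genes Pecam1 and Vwf differed by -0.77 and 0.19 and did not pass. Among secreted growth signals Tgfb2 was at 3.75, 4.66, 4.53 and 4.51 in lacrimal gland, against 9.38, 8.51, 8.98 and 9.04 in salivary gland, a difference of -4.62.

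Duct and myoepithelial genes were mostly lower too. Of 22 genes, 13 were lower in lacrimal gland, 1 was higher and 8 did not pass, with a median of -1.08. Beside these counts, 14.5% of all genes were lower and 8.13% higher. Cldn4, a tight junction claudin of ducts, was at least 7.06-fold lower and Krt7, a duct keratin, differed by -2.96. The myoepithelial genes Krt5, Krt14 and Acta2 differed by -1.13, -1.01 and -1.04, with Krt14 and Acta2 near the fold of 2. The keratins of all simple epithelia, Krt8 and Krt18, differed by 0.40 and -0.02 and did not pass. Ceacam1, an adhesion molecule of epithelial surfaces, was the gene higher in lacrimal gland, with a difference of 1.0 that lay at the threshold.

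**Figure D4:**
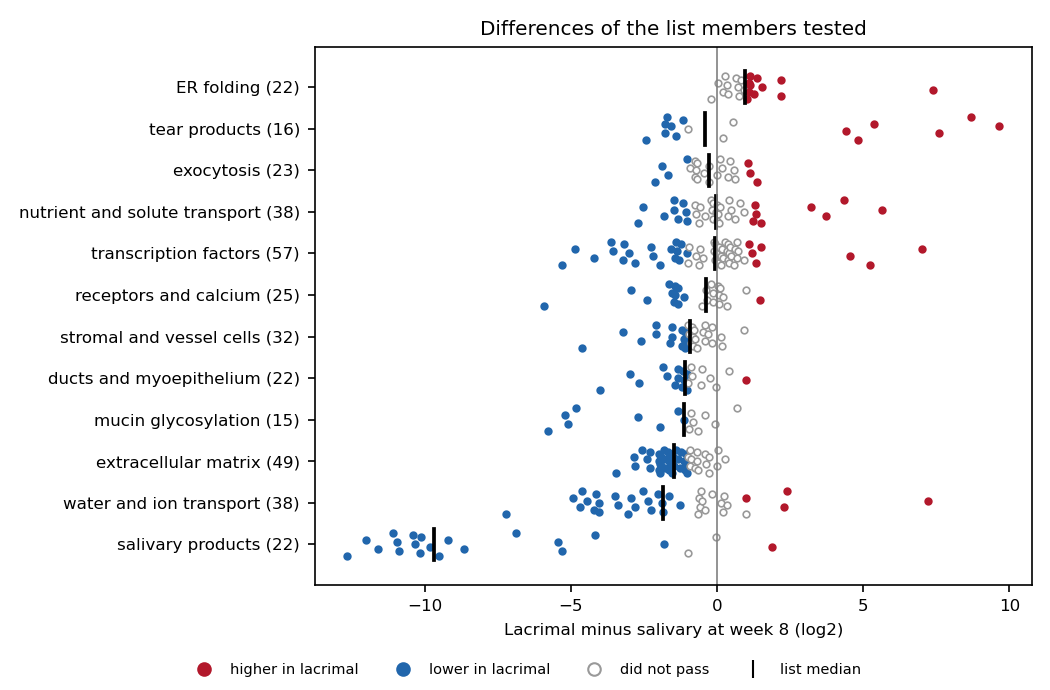
Lacrimal minus salivary difference (log2) at week 8 of each tested member of 12 gene lists, with the number tested in brackets, filled points for genes that passed and black bars for list medians. The lists run from protein folding at the top, with a median of 0.97, to salivary products at the bottom, with a median of -9.66.

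Other cell types were checked beside these shifts. Myeloid and general leukocyte markers were also lower in lacrimal gland in 5 of 8 tested, beside 14.5% of all genes. Among the lower ones Adgre1, a macrophage gene, differed by -1.86. The summed level of these markers on the log2 scale was 8.97 to 10.3 in lacrimal and 10.5 to 11.4 in salivary arrays. Of the measured genes, 8 of 10 myeloid markers and 53 of 57 matrix genes were above the floor in some array, and the part of leukocytes in the stromal result was not tested. None of 5 B and plasma cell genes passed by its brightest probe set, and lacrimal replicate 4 and salivary replicate 1 were the high arrays. Of 3 nerve and Schwann cell markers tested, Sox10 and Pmp22, a myelin protein, were lower in lacrimal gland, and the summed level of the 8 measured, on the log2 scale, was 7.64 to 7.78 in lacrimal and 9.75 to 10.1 in salivary arrays. Of the 8, 5 were at or below the floor in every array. The highest in salivary gland was Sox10, at a mean of 9.42, which is also a factor of acinar and myoepithelial cells. Lacrimal replicate 3 had the lowest mean log2 level of its group for matrix genes at 5.29, fibroblast genes at 5.07 and leukocyte markers at 3.70. Without that array 33 matrix and 13 stromal cell genes were lower, and the part of nerve cells in the stromal result was not tested. Ighm, the heavy chain of immunoglobulin M, was at 6.93, 6.54, 3.97 and 9.36 in lacrimal gland, against 9.06, 3.2, 3.94 and 3.59 in salivary gland. A dimmer Ighm probe set was called higher in lacrimal gland, at 3.46 to 5.83 against 2.26 to 2.98 in salivary gland. It differed by 2.08 (adjusted p = 0.0015 in limma), and the remaining Ighm probe sets did not pass. Of 5 fat markers, 2 were higher in lacrimal gland and 2 lower, with a median of -0.59. Car3 and Adipoq were higher by 2.15 and 1.39, with overlapping groups for Adipoq, and Fabp4, a fatty acid carrier, was among the lower ones with -1.35. Of 10 housekeeping genes, 9 did not pass, with Actb at a difference of -0.84, and Gapdh, a glycolytic enzyme read here by its 5' control probe set, was lower with a difference of -2.36.

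The week 8 differences were then looked for in untreated mice of other ages. Of the 4023 probe sets, 56.2% were called in the same direction at week 12 (n = 3 lacrimal and 4 salivary arrays), 52.6% at week 14 and 48.0% at week 16 (n = 4 each), where 19.7%, 20.9% and 20.6% of all probe sets tested were called in either direction. Among the 415 probe sets with a fold of 8 or more at week 8, the shares were 96.4%, 94.7% and 94.0%, and none was called in the opposite direction. Age, mice and array processing cannot be told apart between weeks.

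The share of week 8 calls found again differed by list, as counts with no test of the difference. For all week 8 calls only the shares per week given above were counted, by probe set. Those shares were higher at a fold of 8 or more, and the part of fold size in the list counts was not tested. All 13 duct and myoepithelial genes and all 8 mucin glycosylation genes that were lower at week 8 were lower at each later week, and so were 21 of the 22 water and ion transport genes and 17 of the 19 salivary products. The 6 tear products higher at week 8 were higher at each later week, but of the 7 that were lower 1 was lower at each, and Lyz1 differed by 1.87, 2.33 and 2.80 at weeks 12, 14 and 16. Of the 11 higher protein folding genes, 4 were higher at each later week. Among transcription factors 4 of the 7 higher and 15 of the 19 lower ones were called at each later week. Of the lower genes, 18 of 34 matrix genes and 6 of 14 stromal cell genes were lower at each later week. None of the 5 leukocyte markers that were lower at week 8 was lower at a later week.

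Pax6 was at 8.84 ± 0.15 in lacrimal and 2.96 ± 0.04 in salivary gland at week 16 (SD, n = 4 each), and its difference was 6.19 at week 12, 6.19 at week 14 and 5.87 at week 16. Pitx1 differed by -5.95, -5.65 and -5.74 and Cftr by -5.64, -6.36 and -6.35 at these weeks. Aqp8 differed by 7.50, 7.67 and 7.33. Other week 8 calls were not repeated. Slc4a4 differed by 0.63, 0.27 and 0.19, Tfap2b by 0.32, 0.29 and 0.40, and Rab27a by 0.01, 0.28 and -0.18, and none of these passed. Klk1 stayed lower at each week, but its lacrimal level was 6.22 to 10.2 at week 12, 5.32 to 11.01 at week 14 and 4.76 to 11.9 at week 16, against 2.93 to 4.0 at week 8. Amy1, which was not called at week 12 or 16, spread in both glands, with 3.19 to 15.3 in lacrimal and 7.36 to 14.2 in salivary arrays at week 16. Dnase1 reached 13.6 in a salivary array at week 16, so a high salivary value of this gene was not limited to week 8. The source of these transcripts was not tested.

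**Figure D5:**
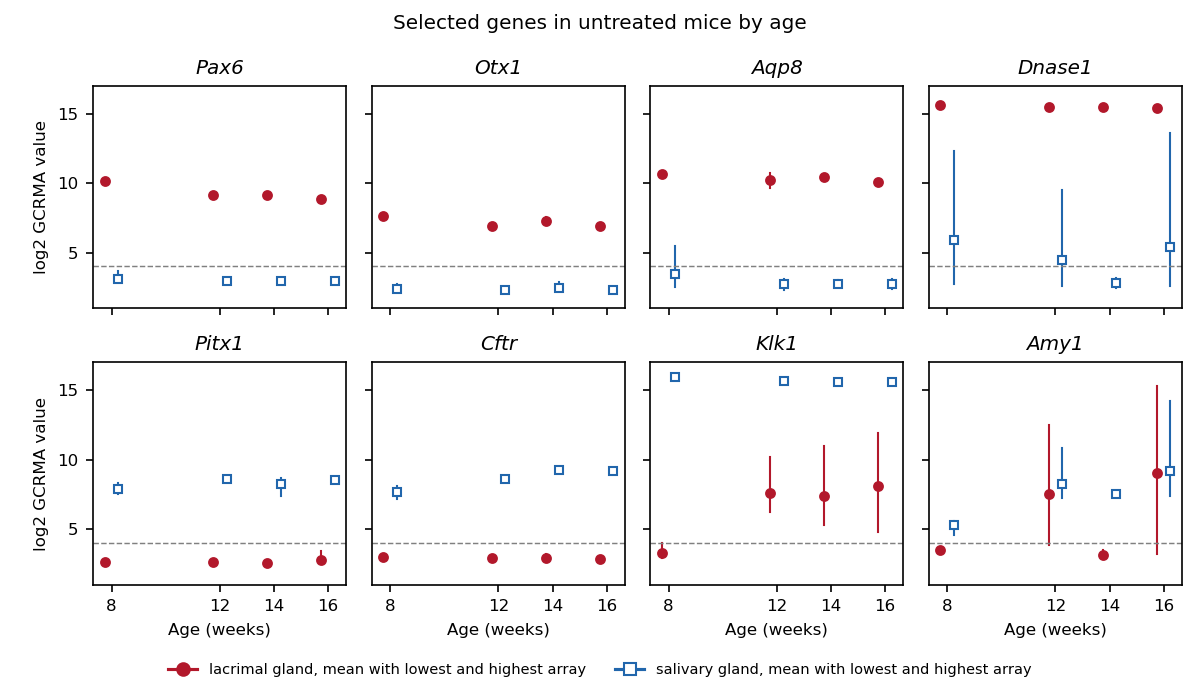
Mean log2 GCRMA value of 8 selected genes in untreated mice at weeks 8, 12, 14 and 16, with lines from the lowest to the highest array (n = 3 for lacrimal gland at week 12, otherwise 4) and a dashed line at 4. Pax6, Otx1, Aqp8, Pitx1 and Cftr kept the glands apart at each week, while Klk1 in lacrimal gland, Dnase1 in salivary gland and Amy1 in both spread widely at some weeks.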

How the data were processed

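The authors normalized the probe intensities of all 61 arrays together by GCRMA (version not given in the sources used here) and deposited a log2 value per probe set, which was used as deposited. Probe sets above 4 in at least 2 of the 8 arrays were tested in R 4.3.3 with limma 3.58.1, with 1 mean per gland and an intensity trend. The study's methods name limma, a fold above 2 and a posterior probability, which was tried as an alternative to the adjusted p. Later weeks were fitted separately on the same probe sets. Of the probe sets, 34958 had 1 gene symbol in the platform annotation, 932 had several and 9211 were not listed there, and genes were named only from the first kind. A gene was represented by its tested probe set with the highest mean over the 8 arrays. Where all arrays of a gland were at or below 4, folds are bounds, the other gland's mean over 4. Of 668 genes in the lists, 389 were tested, 205 lay below the filter and 74 had no probe set of their own, and the 389 gave 45 higher and 169 lower calls. Genes were named as list members with the largest differences in each role, with some that did not pass, and as the 15 highest and 15 lowest called genes whose groups did not overlap. The members and lists were chosen with earlier results of these data known. Start regions are from RefSeq, GRCm38.p6. Alternatives changed the filter, scaling, trend, call rule, samples fitted, probe set choice and replicates. Correlations of deviations between same-numbered arrays were 0.11, -0.16, 0.04 and -0.01. They cannot show whether same-numbered arrays came from the same mouse, since glands of 1 mouse need not deviate together, so pairing is unknown. The scripts were tested on simulated data. The number of arrays limits the precision.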

Additional observations from a re-analysis of the deposited data

Results flagged for a closer look

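Single arrays far from the other 3 of their group were looked for in both groups of 152 named genes, 304 groups in all. By Dixon's critical value for the gap to the nearest array, 21 stood out, and chance alone does so in about 1 in 20 groups. Of the 21, 8 were salivary replicate 1. That array was at 13.34 for Lcn11, 7.75 for Fgg, 6.20 for Cyp2j13, 6.94 for Chst1 and 4.33 for Akr1c18, genes high in lacrimal gland, with the nearest other salivary array at 3.54, 2.71, 2.54, 3.24 and 3.01. It was also the highest salivary array for Pax6 at 3.69 and Otx1 at 2.77, both below the floor, and for Ighm at 9.06.

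Lacrimal replicate 4 was highest in its group for the B cell genes Ms4a1 at 4.65 and Cd79a at 4.38 and for Adgre1 at 5.0, was highest for Klk1b1 at 2.98, and was lowest for Sox10 at 5.65 and Slc9a3 at 2.19. Lacrimal replicate 1 was lowest for Fgfr2 at 3.67, Tgfb2 at 3.75 and Cst10, a salivary cystatin, at 2.39, and highest for Klk1b16 at 3.48. Salivary replicate 2 was lowest for Amy1 at 4.58 and highest for Aqp5 at 11.57, and salivary replicate 3 was highest for Dcn at 12.13. The values of Klk1b1, Klk1b16, Cst10 and Slc9a3 in these lacrimal arrays were all below the floor.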

How the results depend on the processing

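Of the 124 named genes that were called at week 8, 118 were tested under every alternative of filter, scaling, trend, call rule, samples, block and replicates, and 100 of these kept their call and direction. The other 6 did not pass the filter at 6, and 4 of them kept theirs where they were tested. No result reversed. Calling by posterior probability gave 2566 probe sets, 1018 higher and 1548 lower in lacrimal gland, and a filter at 6 gave 1578 lower ones, fewer by construction since fewer probe sets were tested. Under the posterior rule, tear products had 3 higher and 4 lower calls, secretoglobins 0 higher, nutrient carriers 5 higher and 4 lower, receptor and calcium genes 6 lower, matrix genes 21 lower, stromal cell genes 7 lower, leukocyte markers 0 lower and fat markers 0 higher and 0 lower. That rule lost 17 named genes, among them Lcn11, Dnase1, Sval2, Obp1a and Scgb1b2, in which salivary replicate 1 stood above the other salivary arrays. With the filter at 6, nutrient carriers had 5 lower, stromal cells 7 lower and fat markers 1 higher and 1 lower. With all 61 arrays in the fit, leukocyte markers had 1 higher and fat markers 0 higher, and Amy1 was not called (adjusted p = 0.4864 in limma). Without a filter, leukocyte markers had 3 lower and fat markers 1 higher. Equal medians gave receptor and calcium genes 2 higher, and averaging probe sets gave housekeeping genes 1 higher. The cause of these changes was not tested.

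Leaving out 1 array at a time gave 1 to 2 higher receptor and calcium genes, 0 to 1 higher stromal cell genes, 0 to 1 higher duct and myoepithelial genes, 0 to 2 higher and 3 to 7 lower leukocyte markers, 1 to 2 lower fat markers and 1 to 2 lower housekeeping genes. Leukocyte markers reached 7 without lacrimal replicate 4, and Ighm was higher by 3.12 (adjusted p = 0.0202 in limma) without salivary replicate 1. With the replicate number as a block, in case same-numbered arrays shared a mouse, 4032 probe sets were called and no named gene changed its call. Signal near the floor and near the top of the scale limits how well folds are measured.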

Other observations

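At week 16, 181 of the 4023 week 8 calls were called in the opposite direction. The genes with the largest opposite differences, chosen after their values were seen, included several known from leukocytes. Coro1a, an actin regulator of leukocytes, differed by -1.31 at week 8 and by 5.97 at week 16, lacrimal minus salivary. Ptprc, the leukocyte common antigen CD45, differed by -1.19 and 5.19 at these weeks, though its week 8 call (adjusted p = 0.0466 in limma) was lost in several alternatives, with an adjusted p of 0.1262 without salivary replicate 1. Cd52, a lymphocyte surface protein, differed by -1.29 and 5.20. Gimap4, a lymphocyte GTPase, differed by -1.24 and 5.07, and Cd53, a tetraspanin of leukocytes, by -1.15 and 4.86.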
